A study of Mus musculus with 11 samples.

Results

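The liver RNA of female B6-mtALR mice was compared between 5 months and 3 months of age. The mice were chosen by the strain and age in their labels, 3 of 5 months (replicates 1 to 3) and 4 of 3 months (replicates 4 to 7), which is 7 of the 11 mice of the series. B6-mtALR (C57BL/6J-mtALR/J in the labels) is a conplastic strain, bred so that the mitochondrial DNA (mtDNA) of ALR/LtJ mice sits with the nuclear genome of C57BL/6J. Both ages carried the same mutation in *mt-Nd2* (m.4738C>A), which encodes a subunit of respiratory complex I, so neither group is a wild type. The other 4 mice were females of the conplastic strain B6-mtBPL (C57BL/6J-mtBPL/J), which carries a mutation in *mt-Nd5* (m.11902T>C), another complex I subunit, with 2 of 3 months and 2 of 4 months. They share no animal with the B6-mtALR groups and were used as a second comparison of young ages. Each library came from the liver of 1 mouse, and no treatment is given in the labels. The ages are those of the labels, although the text of the study gives a narrower range of ages for the sequenced mice. The labels also give no time of day, feeding state, litter or sequencing batch, so age and any of these cannot be told apart here. The comparison asks which genes differed between these ages in the strain, whatever their pathway.

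Much of the liver transcriptome follows the time of day and the feeding state. In the circadian clock, ARNTL (BMAL1) pairs with CLOCK or NPAS2 and binds E-boxes to activate the *Per*, *Cry* and *Nr1d* genes, whose products repress it in turn, while DBP and TEF act through D-boxes on output genes. Fasting and glucocorticoid hormones raise genes of gluconeogenesis, and growth hormone sets sex-biased liver genes such as those of the major urinary proteins.

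The libraries of the B6-mtALR mice held between 18081015 and 24993089 counts. Correlations of log2 counts per library size (CPM) between mice ranged from 0.966 to 0.982 within an age and from 0.960 to 0.974 between ages. No pair of mice agreed within sampling noise. The first principal component held 29.5% of the variance. It placed the mice of 5 months between 2.03 and 42.5 and those of 3 months between -31.0 and 3.66. Replicates 3 and 7 lay side by side on it, but at 34.1 and -10.1 on the second component (18.5%). Of the 19 library measures compared between the ages 0 passed after adjustment. With 3 against 4 mice the exact permutation p cannot be under 0.0286, which became 0.543 after adjustment. This test could thus hardly have shown a difference. The hepatocyte markers summed to 130140 to 151255 CPM at 5 months and 127206 to 149577 CPM at 3 months, which fits the label of liver, and markers of the exocrine pancreas summed to at most 1.34 CPM. Macrophage markers summed to 481 to 550 CPM and 523 to 587 CPM (two-sided exact permutation p = 0.114).

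Of 20445 genes with a count, 13375 passed the filter on low counts and were tested with the quasi-likelihood test of edgeR. At an adjusted p under 0.05, 68 genes were higher (0.508% of the genes tested) and 38 were lower (0.284%) at 5 months, 106 in all (0.793%). Of these 106 genes 12 belonged to the lists of core clock and clock output genes and 94 did not. In none of the lists and families examined were 66 of them. The absolute log2 fold change of the higher genes ranged from 0.69 to 5.84, with a median of 1.52, and that of the lower genes from 0.66 to 2.69, with a median of 1.29. Values are given in CPM, that is counts relative to the size of the library as scaled by TMM, for replicates 1, 2 and 3 of 5 months and replicates 4, 5, 6 and 7 of 3 months in this order. For all 106 genes the CPM of the age groups did not overlap, which was the case for 1284 genes (9.6%) of all those tested. An unadjusted p under 0.05 was reached by 1345 genes, 692 of them higher and 653 lower at 5 months. The log2 fold change was positive for 6923 of the 13375 genes.

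The number of genes past the threshold depended on single mice. It was 69 without the 5-month replicate 1, 120 without replicate 2 and 44 without replicate 3, and 38, 59, 68 and 97 without the 3-month replicates 4, 5, 6 and 7. DESeq2 gave 302 genes, among them 105 of the 106. Across genes the log2 fold change was weakly related to transcript length (Spearman rho -0.13 over 13375 genes, which are not independent), and with a correction for length 94 genes passed, 84 of them among the 106. A subset of 31 genes, 24 higher and 7 lower, passed in each fit that tested them, that is with any mouse left out and under each of 11 other settings. Of these 31 genes 25 lay outside the clock lists, 20 of them higher and 5 lower at 5 months. Most of them are described first.

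**Figure D1:**
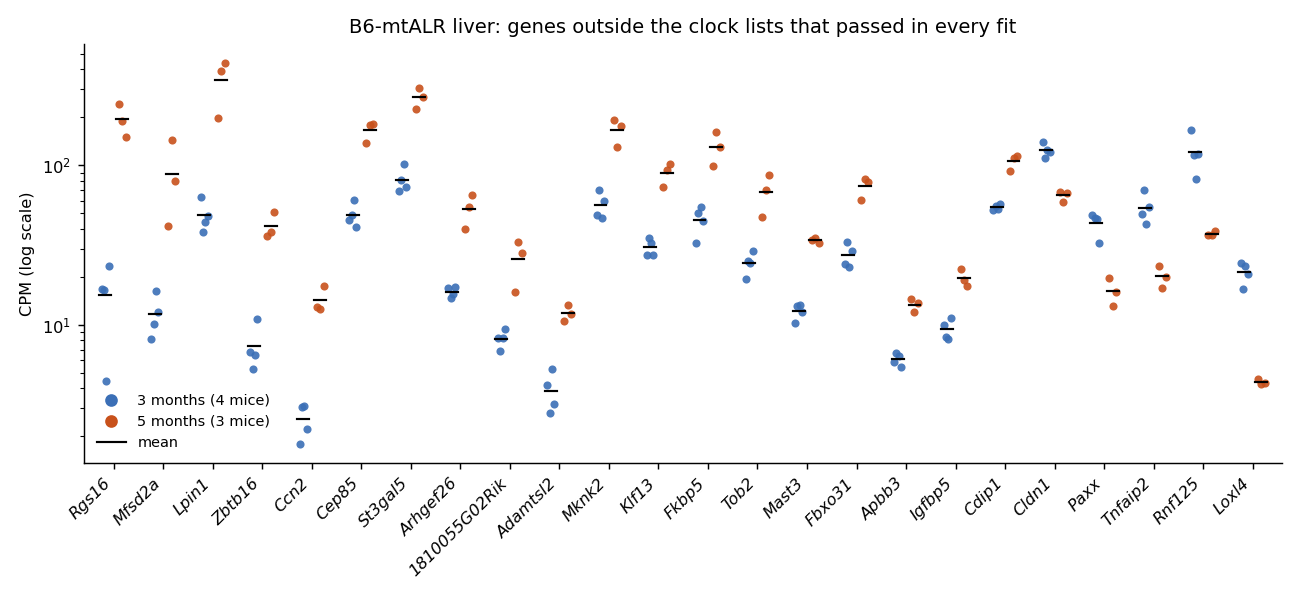
Expression of 24 of the 25 genes outside the clock lists that passed in every fit, in CPM on a log axis, with 1 point per B6-mtALR mouse (blue, 4 mice of 3 months; orange, 3 mice of 5 months) and a black line at each group mean. The 19 genes on the left were higher and the 5 on the right, *Cldn1* to *Loxl4*, lower at 5 months, and in none of them do the points of the ages overlap.

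The largest increase among them was that of *Rgs16* (ENSMUSG00000026475), which encodes a regulator of G protein signalling and lies on chromosome 1 from 153740349 to 153745468 (GRCm38). Its expression was 243, 190 and 150 CPM at 5 months and 16.8, 16.6, 4.42 and 23.3 CPM at 3 months. Each mouse of 5 months was thus far above the highest of 3 months. The log2 fold change was 3.67 ± 0.42 (adjusted p = 0.00371 by edgeR). The value after ± is an approximate standard error (SE), the absolute log2 fold change divided by the square root of the F statistic. *Mfsd2a*, which encodes a transporter of lysophosphatidylcholine, was measured at 41.3, 144 and 79.7 CPM against 8.12, 10.1, 16.2 and 12.1 CPM. The mice of 5 months differed widely among themselves but lay above those of 3 months, and the log2 fold change was 2.93 ± 0.37 (adjusted p = 0.00636 by edgeR). *Lpin1* (ENSMUSG00000020593, chromosome 12 from 16535669 to 16610966) encodes a phosphatidate phosphatase of triglyceride synthesis that also acts as a transcriptional co-regulator. It gave 199, 390 and 437 CPM at 5 months and 63.5, 38.3, 44.0 and 47.8 CPM at 3 months. The increase was 2.82 ± 0.26 on the log2 scale (adjusted p = 0.00103 by edgeR), without overlap of the ages. *St3gal5*, whose product makes the ganglioside GM3, rose from 68.9, 80.4, 101 and 72.8 CPM at 3 months to 226, 307 and 268 CPM at 5 months, with a log2 fold change of 1.72. The points were tight within each age. *Arhgef26*, which encodes a guanine nucleotide exchange factor for small GTPases, and *Cep85*, which encodes a centrosomal protein, had log2 fold changes of 1.72 and 1.76 (adjusted p = 0.00109 and 0.00103 by edgeR).

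*Mast3*, which encodes a microtubule-associated serine/threonine kinase, rose without overlap of the ages, with 33.8, 35.1 and 32.7 CPM against 10.2, 13.1, 13.3 and 12.04 CPM. Its log2 fold change was 1.48 ± 0.13 (adjusted p = 0.00103 by edgeR). *Mknk2*, which encodes a kinase of the translation factor eIF4E, gave 193, 130 and 177 CPM against 48.5, 70.3, 46.4 and 59.5 CPM, again without overlap. The transcription factor gene *Klf13* rose by 1.54 on the log2 scale, *Tob2*, which encodes an antiproliferative protein, by 1.48, and *Fbxo31*, which encodes a substrate receptor of a ubiquitin ligase, by 1.43. *Cdip1*, *Apbb3* and *1810055G02Rik* had log2 fold changes of 0.95, 1.14 and 1.65. *Mast3*, *Klf13*, *Mknk2*, *Tob2*, *Fbxo31*, *Cdip1*, *Apbb3*, *Igfbp5* and *Cldn1* are named here because they passed in every fit, a choice made after their values were seen. *Apbb3*, *Cdip1* and *Fbxo31* overlap a tested gene on the opposite strand, as 16 of the 106 genes do. The strandedness of the libraries is not given in the sources used here, and reads of such pairs may be hard to assign.

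*Ccn2* (connective tissue growth factor, chromosome 10 from 24595442 to 24598683) was expressed at 12.99, 12.6 and 17.5 CPM at 5 months and at 1.79, 3.07, 3.11 and 2.23 CPM at 3 months. The ages were far apart, with a log2 fold change of 2.49 ± 0.22 (adjusted p = 0.00103 by edgeR). *Adamtsl2*, which encodes a secreted glycoprotein, and *Igfbp5*, which encodes a binding protein of insulin-like growth factors, rose by 1.61 and 1.07 on the log2 scale. *Loxl4* (ENSMUSG00000025185, chromosome 19 from 42593982 to 42612813), which encodes a lysyl oxidase that cross-links collagen, was measured at 4.55, 4.25 and 4.32 CPM at 5 months and at 24.5, 16.7, 23.3 and 20.7 CPM at 3 months. The 3 values of 5 months were nearly equal, and its adjusted p was the smallest of all genes (log2 fold change -2.28 ± 0.17, adjusted p = 0.000796 by edgeR). Of 37 tested collagen and laminin genes 0 passed by edgeR, with a median log2 fold change of 0.18 against 0.01 over all genes tested; 5 were higher and 1 lower at an unadjusted p under 0.05, led by *Col6a3* (log2 fold change 1.23, adjusted p = 0.0754 by edgeR). The summed level of the 9 stellate cell and fibroblast markers was 460 to 528 CPM at 5 months and 389 to 444 CPM at 3 months (two-sided exact permutation p = 0.0286, the lowest value possible with 3 against 4 mice, and 0.543 after Benjamini-Hochberg adjustment over 19 library measures). As shares of the raw counts the exact permutation test gave p = 0.0857. None of the 9 markers passed on its own, none was at 0, and their part in the changes of *Ccn2*, *Adamtsl2*, *Igfbp5* and *Loxl4* was not tested. In whole liver, more cells of a type and more RNA per cell cannot be told apart.

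Besides *Loxl4*, 4 genes outside the clock lists were lower at 5 months in every fit. *Tnfaip2*, a gene induced by tumour necrosis factor, gave 23.3, 17.1 and 19.9 CPM against 49.2, 70.2, 42.9 and 54.5 CPM. No mouse of 5 months reached the lowest of 3 months, and the log2 fold change was -1.43 ± 0.19 (adjusted p = 0.00796 by edgeR). *Rnf125*, which encodes a ubiquitin ligase, was nearly constant at 5 months, with 36.8, 36.6 and 38.5 CPM, and ranged from 82.2 to 166 CPM at 3 months (log2 fold change -1.69). *Cldn1*, which encodes the tight junction protein claudin 1, fell by 0.94 on the log2 scale. *Paxx*, which encodes a factor of DNA end joining, fell by 1.41 on the log2 scale. The span of *Paxx* on chromosome 2 (25455141 to 25461094) holds *Clic3*, a chloride channel gene on the opposite strand (25456838 to 25458776), which also fell, from 2.00, 3.16, 5.09 and 2.06 CPM to 0.535, 0.502 and 0.574 CPM. The *Clic3* call was lost without the 5-month replicates 1 or 3 or the 3-month replicate 5, with an adjusted p of up to 0.0926 by edgeR, and the reads of this pair may not be separable.

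The other genes with large changes were less stable. *Ctcfl*, which encodes a paralogue of CTCF, rose by 1.64 on the log2 scale and was lost without the 5-month replicate 1 or the 3-month replicate 4 (adjusted p up to 0.0638 by edgeR). *Fam180a*, at 1.61 to 2.37 CPM against 0.176 to 0.542 CPM, rose by 2.404 and was lost without the 5-month replicate 3 (up to 0.0617). *A930033H14Rik* rose by 2.57, with 0.959 CPM in the 5-month replicate 2 and 2.95 and 3.53 CPM in the others, and held without replicate 2 only (up to 0.105). Among the lower genes, *Dnmt3b*, which encodes a de novo DNA methyltransferase, fell from 4.29, 6.32, 7.26 and 4.405 CPM to 1.87, 2.83 and 1.85 CPM (log2 fold change -1.35). *Ptgds*, which encodes a prostaglandin D synthase, fell by 1.46 on the log2 scale. Their adjusted p of 0.0498 and 0.0467 by edgeR were close to the threshold, and *Dnmt3b* held in 2 and *Ptgds* in 0 of the 7 fits that left out a mouse (adjusted p up to 0.180 and 0.155 by edgeR).

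The clock genes also changed. In the core clock list 5 of 18 tested genes were higher and 2 lower (38.9% in all). Among 13 tested output factors 6 were higher and 0 lower (46.2%), with *Ciart* in both lists. Over all genes tested 0.793% passed. *Arntl*, the activator of the clock, was measured at 9.46, 13.9 and 8.47 CPM at 5 months and at 36.1, 31.4, 31.6 and 30.9 CPM at 3 months, and its partner *Npas2* at 1.96, 4.11 and 1.19 CPM and at 19.3, 15.8, 14.9 and 12.3 CPM. Both were lower in each mouse of 5 months, with log2 fold changes of -1.62 and -2.69 (adjusted p = 0.00323 and 0.00665 by edgeR). *Usp2*, a rhythmic ubiquitin protease gene, *Tef*, *Klf10* and *Bhlhe40*, the last of which encodes a repressor of the clock, rose by 2.95, 2.30, 1.89 and 1.64 on the log2 scale, and these 6 clock genes passed in every fit. The repressor genes *Per1*, *Per3* and *Ciart* and the output factor *Dbp* passed the test but varied within the 5-month group. *Dbp*, named here after its values were seen, was measured at 64.3, 2.69 and 49.9 CPM against 0.625, 1.05, 0.676 and 0.279 CPM. Replicate 2 was thus much nearer to the mice of 3 months than the other 2 of its age, and it was also the lowest for *Per3* (27.8, 2.603 and 16.6 CPM) and *Ciart* (4.02, 1.14 and 5.91 CPM), but not for *Per1* (9.95, 31.1 and 34.6 CPM). *Nr1d2*, a repressor of *Arntl*, rose by 1.53 on the log2 scale and held in 2 of the 7 fits that left out a mouse. Its relative *Nr1d1* did not pass (134, 53.9 and 107 CPM against 60.2, 46.7, 25.7 and 33.4 CPM), nor did *Cry1* (3.53, 15.4 and 3.75 CPM against 24.1, 15.8, 21.6 and 17.2 CPM). For both, the 5-month replicate 2 again lay nearest to the mice of 3 months. *Clock* and *Per2* had log2 fold changes of -0.53 and 0.41 and did not pass. The *Dbp* call was lost without the 5-month replicate 3 or the 3-month replicates 4, 5 or 6 (adjusted p up to 0.0634 by edgeR) and that of *Per1* without replicates 3 or 4 (up to 0.0764), whereas *Per3* held without the 5-month replicate 2 only, and in 7 of 10 other settings. *Ciart* was lost without the 5-month replicate 3 or the 3-month replicates 4 or 5 (adjusted p up to 0.126 for *Per3* and 0.0545 for *Ciart* by edgeR).

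The promoters of 82 of the 106 genes are in the RefSeq promoter table of GRCm38.p6, and the 250 bases before the start were searched on both strands. An E-box (CACGTG) was present in 14.5% of the 55 promoters of higher genes, 3.7% of the 27 of lower genes and 8.3% of the 10222 of all genes tested. Among the higher genes with an E-box, the windows of *Tef* and *Il6ra* lie wholly in annotated exons. A D-box (TTATGTAA, TTACGTAA or TTATATAA) was present in 1.8%, 7.4% and 0.9%, and a ROR element (AGGTCA) in 16.4%, 7.4% and 10.9%. The D-box share of the lower genes rests on 2 promoters, those of *Ptgds* and of a major urinary protein gene. In the latter the match (TTATATAA) begins 31 bases before the start. The other 3 searched motifs were the CRE (TGACGTCA), at 0.0%, 0.0% and 2.6%, the CCAAT box (CCAAT), at 43.6%, 37.0% and 36.8%, and the heat shock element (GAANNTTC), at 1.8%, 7.4% and 5.1%. These letters are a description of the windows, and no binding was measured. The windows of 3 higher genes are shown because they hold such motifs, with the E-boxes of *Ciart* and *Fkbp5* and the D-boxes of *Per3* in capitals. They lie on the minus strand at chr3:95882229-95882478, chr17:28486150-28486399 and chr4:151044666-151044915, respectively, and the window of *Fkbp5* lies inside the longest span annotated for this gene.
Ciart: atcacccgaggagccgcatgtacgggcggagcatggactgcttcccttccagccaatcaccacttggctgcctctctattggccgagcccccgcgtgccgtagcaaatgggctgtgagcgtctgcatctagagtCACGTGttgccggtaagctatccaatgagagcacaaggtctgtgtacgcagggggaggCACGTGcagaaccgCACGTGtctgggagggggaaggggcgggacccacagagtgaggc
Fkbp5: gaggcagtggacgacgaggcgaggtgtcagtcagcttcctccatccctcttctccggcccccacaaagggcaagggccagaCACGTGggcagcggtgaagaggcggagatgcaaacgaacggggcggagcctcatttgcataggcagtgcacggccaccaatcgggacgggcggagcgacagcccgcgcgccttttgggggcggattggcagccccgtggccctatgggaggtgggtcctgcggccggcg
Per3: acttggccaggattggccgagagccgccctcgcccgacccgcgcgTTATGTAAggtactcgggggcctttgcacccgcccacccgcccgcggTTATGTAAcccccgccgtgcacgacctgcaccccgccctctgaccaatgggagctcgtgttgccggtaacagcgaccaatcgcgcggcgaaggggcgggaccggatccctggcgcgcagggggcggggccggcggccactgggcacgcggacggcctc

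Among the 45 lists and families of genes, 17 held a gene past the threshold and 28 held none. The highest median was that of the glucocorticoid targets, at 1.15 on the log2 scale. There 13 of 14 tested genes had a positive log2 fold change and 4 rose (28.6%, against 0.508% of all genes tested). These were *Zbtb16*, *Fkbp5*, *Errfi1* and *Per1*, the last also a clock gene. *Zbtb16*, which encodes a zinc finger repressor, gave 36.0, 38.0 and 50.6 CPM against 6.71, 5.31, 6.45 and 10.9 CPM (log2 fold change 2.50 ± 0.23, adjusted p = 0.00103 by edgeR). *Fkbp5*, which encodes a co-chaperone of the glucocorticoid receptor, gave 98.3, 162 and 130 CPM against 32.7, 50.5, 54.4 and 44.8 CPM (log2 fold change 1.51 ± 0.21, adjusted p = 0.00892 by edgeR). Both genes separated the ages in every mouse and passed in every fit. *Errfi1*, which encodes an inhibitor of the EGF receptor, rose by 1.63 on the log2 scale, a call lost without the 5-month replicate 3 or the 3-month replicates 4 or 6 (adjusted p up to 0.104 by edgeR). The receptor gene itself, *Nr3c1*, had a log2 fold change of -0.03 and did not pass.

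**Figure D2:**
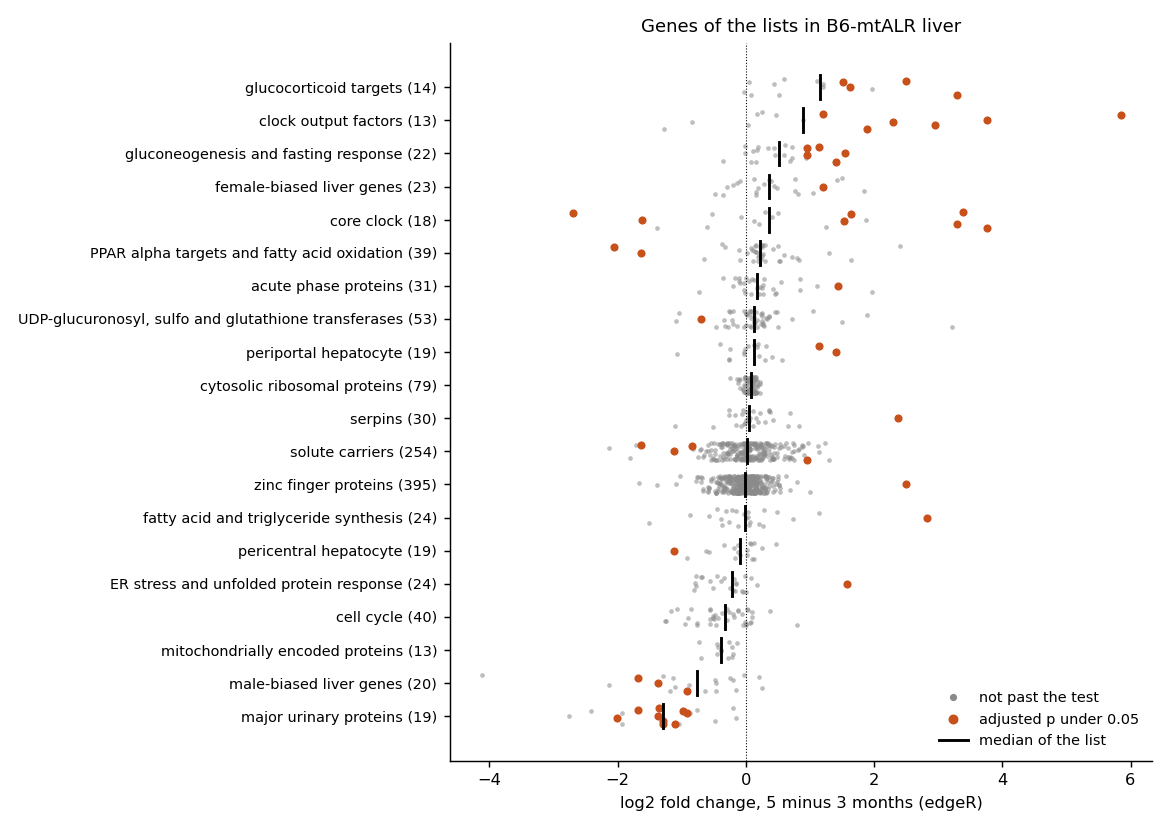
Log2 fold change (5 minus 3 months, edgeR) of each tested gene of the lists and families with at least 1 gene past the threshold, and of 3 others (cell cycle, mitochondrially encoded proteins, cytosolic ribosomal proteins), with the number tested in brackets. Orange points passed at an adjusted p under 0.05, grey points did not, and black lines are medians, from 1.15 for glucocorticoid targets to -1.29 for major urinary proteins.

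The gluconeogenesis and fasting list had the third highest median, at 0.52, and 19 of its 22 tested genes had a positive log2 fold change. *Pck1*, the cytosolic enzyme that commits carbon to gluconeogenesis, gave 1485, 2456 and 3051 CPM at 5 months and 571, 1105, 763 and 1071 CPM at 3 months. *Slc37a4*, the glucose-6-phosphate transporter of the endoplasmic reticulum, gave 175, 186 and 183 CPM against 93.8, 107, 99.8 and 74.5 CPM. The mice of 5 months were above those of 3 months for both, with log2 fold changes of 1.41 and 0.95 (adjusted p = 0.0498 and 0.0133 by edgeR). The transcription factor genes *Cebpb* and *Foxo1* and the serine dehydratase gene *Sds* rose by 1.54, 0.96 and 1.13 on the log2 scale. These calls were weaker than those above. *Slc37a4* and *Cebpb* were lost without the 5-month replicate 3 or the 3-month replicate 4 (adjusted p up to 0.0643 and 0.0797 by edgeR). *Sds* held without the 5-month replicate 2 only, *Pck1* without the 5-month replicate 1 only, and *Foxo1* without the 5-month replicate 1 or the 3-month replicate 7 only, with adjusted p of up to 0.155, 0.176 and 0.155 in the other fits by edgeR. Under the other settings that tested them, *Foxo1* passed in 4 of 11, *Pck1* in 4 of 10 and *Sds* in 8 of 11, and all 3 were lost by limma-trend and with either correction for length.

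**Figure D3:**
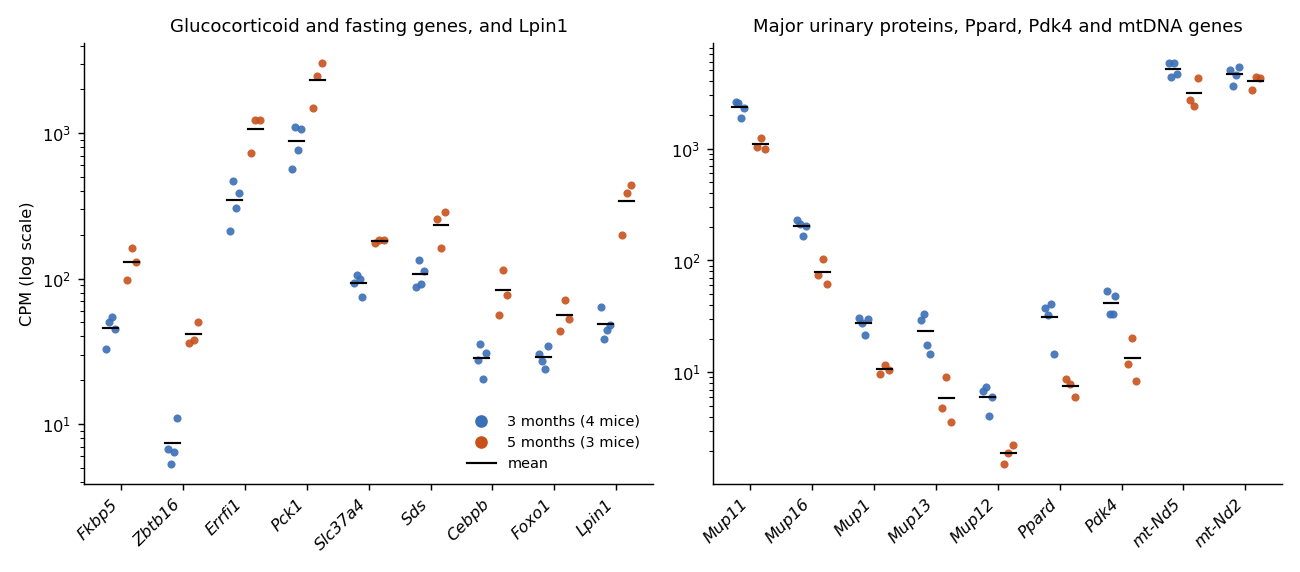
Expression of single genes in CPM on a log axis, with 1 point per B6-mtALR mouse (blue, 4 mice of 3 months; orange, 3 mice of 5 months) and a black line at each group mean. Left, glucocorticoid and fasting genes and *Lpin1*, all higher at 5 months. Right, 5 major urinary protein genes, *Ppard* and *Pdk4*, which were lower at 5 months, and *mt-Nd5* and *mt-Nd2*, which did not pass the test.

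Fatty acid genes showed a mixed pattern. In the list of PPAR alpha targets and fatty acid oxidation 32 of 39 tested genes had a positive log2 fold change (median 0.22). Yet the 2 genes that passed were lower (5.13%, against 0.284% of all genes tested). Without the 5-month replicate 2 the median was -0.03. *Ppard*, which encodes a nuclear receptor related to PPAR alpha, was at 8.70, 7.94 and 6.04 CPM against 37.7, 32.3, 41.0 and 14.6 CPM. *Pdk4*, whose product keeps pyruvate out of the citric acid cycle, was at 11.96, 20.1 and 8.43 CPM against 52.96, 33.0, 32.9 and 48.5 CPM. The log2 fold changes were -2.05 and -1.63 (adjusted p = 0.0168 and 0.0353 by edgeR), and the mouse nearest to the other age was replicate 7 for *Ppard* and replicate 2 for *Pdk4*. The *Ppard* call was lost without the 5-month replicates 1 or 3 or the 3-month replicates 4 or 5 (adjusted p up to 0.101 by edgeR) and that of *Pdk4* without any of these or the 3-month replicate 7 (up to 0.124). *Cpt1a* and *Ppargc1b*, which act in mitochondrial fatty acid import and in mitochondrial biogenesis, had log2 fold changes of 0.60 and 1.30 and did not pass (adjusted p = 0.185 and 0.150 by edgeR). In the list of fatty acid and triglyceride synthesis *Lpin1* was the only one of 24 tested genes to pass (4.17%, against 0.793% of all genes tested). *Lpin2*, its relative, had a log2 fold change of 0.74 (adjusted p = 0.131 by edgeR), and *Elovl6* and *Srebf1* had -0.87 and -0.57 (adjusted p = 0.347 and 0.349 by edgeR). The 25 cholesterol and the 23 bile acid genes tested held 0 genes past the threshold by edgeR, with medians of -0.00 and 0.02 and with 0 and 1 higher and 1 and 1 lower at an unadjusted p under 0.05.

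The lowest median of all was that of the major urinary proteins, lipocalins that the liver secretes and that carry pheromones in urine. This family was formed by symbol after the data had been seen. All 19 tested genes had a negative log2 fold change, with a median of -1.29. Of these 9 fell (47.4%, against 0.284% of all genes tested), with log2 fold changes from -0.93 to -2.02. Among these 9 genes *Mup13*, *Mup12* and *Mup16* fell by 2.02, 1.68 and 1.36 on the log2 scale. *Mup15* and *Mup17* had log2 fold changes of -2.76 and -2.41 and did not pass (adjusted p = 0.131 and 0.0868 by edgeR). The call of *Mup13* was lost without the 5-month replicates 1 or 3 or the 3-month replicates 4 or 5 (adjusted p up to 0.132 by edgeR), and that of *Mup12* without the 5-month replicate 1 or the 3-month replicate 4 (up to 0.0575). *Mup16* was lost without the 5-month replicate 1 and in both fits of all 11 mice (up to 0.111). *Mup11* was at 1031, 1256 and 990.2 CPM against 2622, 2557, 1867 and 2323 CPM, and *Mup1* was at 9.68, 11.6 and 10.6 CPM against 30.6, 27.7, 21.4 and 30.2 CPM. The ages did not overlap for either, and the log2 fold changes were -1.10 and -1.37 (adjusted p = 0.0140 and 0.00401 by edgeR). The *Mup1* call held with each mouse left out, whereas *Mup11* was lost without the 5-month replicates 1 or 3 or the 3-month replicates 4 or 5 (adjusted p up to 0.0764 by edgeR). With all 11 mice in 1 model the adjusted p was 0.0586 for *Mup1* by edgeR. These genes are near-identical copies on chromosome 4 among which kallisto may divide reads unevenly, so single members are uncertain. For the same reason their calls and signs are not independent, and the 47.4% is not a share of separate measurements. Their summed level does not depend on that division, and it was 9572, 12807 and 8546 CPM at 5 months and 23593, 21677, 16918 and 19305 CPM at 3 months. *Mup3*, *Mup20* and *Mup21* had log2 fold changes of -0.19, -0.15 and -0.49 and did not pass. The pseudogene *Mup-ps14* also fell (log2 fold change -1.99, adjusted p = 0.0328 by edgeR), a call lost without the 5-month replicates 1, 2 or 3 or the 3-month replicates 4 or 5.

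The list of male-biased liver genes had a median of -0.76. Of its 20 tested genes 3 fell (15%, against 0.284% of all genes tested), all of them major urinary proteins. Of its 14 other genes 0 passed by edgeR, although 12 had a negative log2 fold change, among them *Cyp2d9* at -1.14 (adjusted p = 0.142 by edgeR). *Slco1a1*, a male-biased transporter of organic anions, ranged from 37.6 to 178 CPM at 3 months and from 10.8 to 39.3 CPM at 5 months, with overlap. Among 23 tested female-biased genes the median was 0.36 and 1 passed (4.35%, against 0.793% of all genes tested). This was *Hao2*, which encodes a peroxisomal hydroxyacid oxidase (55.8, 42.6 and 46.2 CPM against 20.2, 27.7, 21.5 and 13.8 CPM). Its log2 fold change was 1.21, and the call was lost without the 5-month replicates 1 or 3 or the 3-month replicates 4 or 6 (adjusted p up to 0.110 by edgeR) and in both fits of all 11 mice (up to 0.205).

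The 13 protein genes of mtDNA all had a negative log2 fold change, with a median of -0.38, and 0 passed by edgeR, while 7 were lower at an unadjusted p under 0.05. *mt-Nd5* was at 2691, 2408 and 4236 CPM against 5803, 4341, 5852 and 4620 CPM (log2 fold change -0.73, adjusted p = 0.216 by edgeR), so the ages barely separated. *mt-Nd2*, the gene with the mutation, was at 3358, 4377 and 4289 CPM against 5005, 3625, 4539 and 5405 CPM and overlapped. mtDNA genes took 6.20%, 6.15% and 7.26% of the counts at 5 months and 8.93%, 7.43%, 8.83% and 8.33% at 3 months (two-sided exact permutation p = 0.0571, and 0.543 after adjustment). Of the 77 nuclear respiratory chain and ATP synthase genes, the 79 cytosolic and the 75 mitochondrial ribosomal protein genes tested, 0 passed by edgeR and 0 reached an unadjusted p under 0.05, with medians of 0.02, 0.08 and 0.01.

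In the cell cycle list 30 of 40 tested genes had a negative log2 fold change, with a median of -0.33, and 0 passed by edgeR. At an unadjusted p under 0.05, 10 were lower and 1 higher, against 653 and 692 of the 13375 genes tested. The median of the list was -0.07 with a filter of 5 CPM in 3 mice. *Mki67*, the proliferation marker, was at 2.59, 2.37 and 2.82 CPM against 5.12, 3.47, 3.97 and 6.30 CPM, low in each mouse and without overlap, but its adjusted p was 0.189 by edgeR. *Ccnb1*, a mitotic cyclin gene, had a log2 fold change of -1.25 (adjusted p = 0.164 by edgeR). *Herpud1* of the endoplasmic reticulum stress list rose by 1.58 on the log2 scale, while 20 of the 24 genes tested there had a negative value (median -0.22), and it held without the 5-month replicate 1 only. *Il6ra*, the interleukin 6 receptor gene of the acute phase list, rose by 1.44 and likewise held without the 5-month replicate 1 only (adjusted p up to 0.160 and 0.171 by edgeR). Both passed in 4 of the 11 other settings. Of 254 tested solute carriers 1.57% passed, against 0.793% of all genes tested, and *Slc37a4* was the only one of them that was higher. *Slc1a4*, *Slc22a7* and *Slc41a2*, which transport neutral amino acids, organic anions and magnesium, fell by 1.12, 0.84 and 1.63 on the log2 scale. *Ugt2b35*, a UDP-glucuronosyltransferase gene, fell by 0.70. The calls of these 4 falling genes held in 1, 1, 3 and 0 of the 7 fits that left out a mouse, with adjusted p of up to 0.1202, 0.135, 0.101 and 0.153 by edgeR. The 58 tested cytochrome P450 genes had a median of 0.15 and 0 calls by edgeR, with 10 higher and 3 lower at an unadjusted p under 0.05. None of the 44 interferon-stimulated genes passed by edgeR, with a median of -0.11 and with 0 higher and 2 lower at an unadjusted p under 0.05.

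The B6-mtBPL mice of 4 and 3 months gave the same comparison over a shorter interval, in other animals. In a model of all 11 mice, 14 of 14019 genes (0.0999%) passed between 4 and 3 months, 11 higher and 3 lower, and 939 had an unadjusted p under 0.05. Of these 14 genes 12 had also passed in B6-mtALR mice, with the same sign in each case. They were *Arrdc2*, *Mknk2*, *Lpin1*, *Mast3*, *Usp2*, *1810055G02Rik*, *Pim3*, *Klf10*, *St3gal5* and *Zbtb16*, which were higher in the older mice, and *Tnfaip2* and *Osgin1*, which were lower. The other 2 were *Lpin2*, with log2 fold changes of 1.79 in B6-mtBPL and 0.74 in B6-mtALR mice, where it did not pass, and the pseudogene *Gm15725*, which was not tested in B6-mtALR mice. *Lpin1* was at 37.6 and 38.0 CPM in the B6-mtBPL mice of 3 months and at 435 and 733 CPM in those of 4 months, on the scale of the 11 mice, which is 3.95 ± 0.39 higher on the log2 scale (adjusted p = 0.00487 by edgeR). *Osgin1*, an oxidative stress response gene, was at 472 and 309 CPM and at 71.6 and 55.6 CPM, without overlap. The call of *Osgin1* in B6-mtALR mice was lost without any of the 5-month replicates or the 3-month replicate 5 (adjusted p up to 0.107 by edgeR), that of *Pim3* without the 5-month replicate 3, and that of *Arrdc2* with any mouse left out. The 14 calls rest on few mice, since 0, 0, 8 and 5 remained without B6-mtBPL replicates 1, 2, 3 and 4.

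Over the genes that passed in B6-mtALR mice, all 68 higher genes had a positive log2 fold change in B6-mtBPL mice, with a median of 1.04 and 54 at an unadjusted p under 0.05. Of the 38 lower genes 31 had a negative log2 fold change there, with a median of -0.46 and 17 at an unadjusted p under 0.05. The same sign was found for 63.0% of all 13375 genes. Outside the clock lists the numbers were 58 of 58 and 29 of 36. The major urinary proteins differed in this respect, with a median of 0.07 over the family in B6-mtBPL mice. Their summed level was 8506 and 14387 CPM at 3 months and 7663 and 16872 CPM at 4 months. Some other lists also changed sign. In B6-mtALR and B6-mtBPL mice the medians were -0.38 and 0.24 for mtDNA protein genes and -0.76 and 0.20 for male-biased genes. For endoplasmic reticulum stress they were -0.22 and 0.31, and for collagens and laminins 0.18 and -0.28. Glucocorticoid targets (1.15 and 0.59) and the gluconeogenesis and fasting list (0.52 and 0.49) kept their sign. *Pdk4* was at 10.9 and 9.48 CPM and at 9.10 and 11.1 CPM, and *Ppard* at 9.11 and 8.60 CPM and at 5.78 and 7.04 CPM, which for both genes is near the level of the B6-mtALR mice of 5 months. *Igfbp5* and *Adamtsl2* had log2 fold changes of 0.02 and 0.26 in B6-mtBPL mice. The difference of the age changes between the strains was tested as an interaction and 0 genes passed by edgeR or DESeq2, with 530 and 488 at an unadjusted p under 0.05. The differences were -1.64 (SE 0.45) for *Pdk4*, -1.60 (0.48) for *Ppard* and -1.20 (0.48) for *Mup1* on the log2 scale, and none of them is shown to differ between the strains. The intervals compared were 2 months in B6-mtALR mice and 1 month in B6-mtBPL mice.

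**Figure D4:**
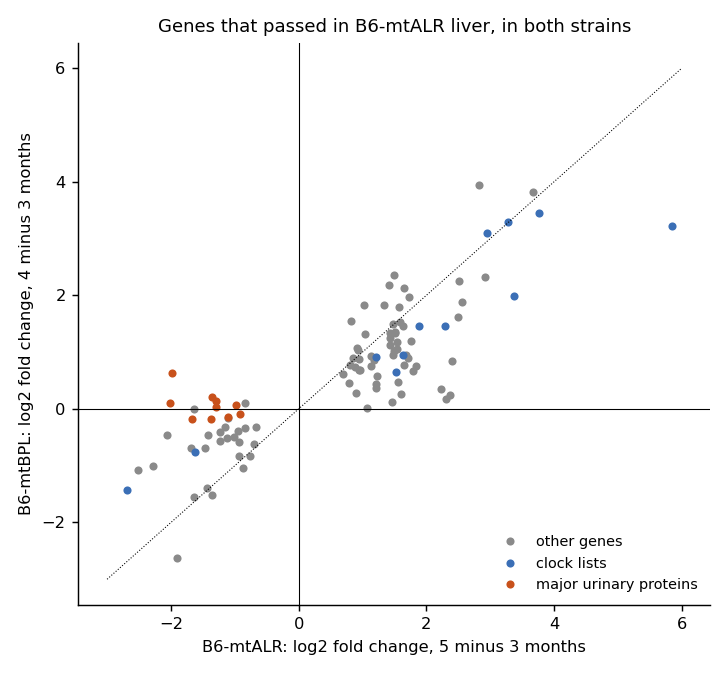
Log2 fold changes of the 106 genes that passed in B6-mtALR mice (5 minus 3 months, x axis) and of the same genes in B6-mtBPL mice (4 minus 3 months, y axis), from edgeR. Blue points are genes of the clock lists, orange points major urinary proteins and grey points other genes, and the dotted line marks equal values. All 68 higher genes lie above 0 on the y axis. The major urinary proteins lie near 0 there, except the pseudogene *Mup-ps14* (also orange) at 0.62.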

How the data were processed

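Liver RNA of 11 mice was sequenced by the authors as polyA-selected, single-end libraries, and pseudo-aligned with kallisto 0.44.0 per the submitters' processing notes. The deposited tables give estimated counts and TPM values (abundances relative to the library) for 96626 transcripts of each mouse. These TPM values, which the authors' tool scales by transcript length and library total, were not used for tests. The transcript release is not given in the sources used here. Of the transcripts 95301 (98.6%) matched GENCODE M21 (GRCm38) and held at least 99.64% of the estimated counts. The deposited estimated counts were summed per gene, rounded to whole numbers and tested with edgeR 4.0.16 in R 4.3.3 (TMM scaling, filter of at least 10 counts, quasi-likelihood test, Benjamini-Hochberg threshold of 0.05). The 7 B6-mtALR mice were fitted alone, as 5 against 3 months. B6-mtBPL mice and the difference between strains were fitted with all 11 mice. The labels give strain, age, sex and tissue, and each sample is a separate mouse. The protocol text names other conplastic strains than the strain field, which was used here. No columns of other series were present (0).

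Alternatives were DESeq2 1.42.0, RLE scaling, limma 3.58.1 on log2 CPM, other filters, all 11 mice, corrections for length and GC content, leaving out mtDNA genes or the 100 most abundant genes, and leaving out each mouse. Genes were named by rule: the 15 largest rises and 15 largest falls among protein coding genes outside the clock lists that passed with a mean of at least 1 CPM and no overlap of the ages, the core clock, up to 4 genes with the smallest adjusted p of each list, and 8 genes of earlier results. *Dbp*, *Nr3c1*, *Mup3*, *Mup20*, *Mup21*, *Mup-ps14*, *Pim3*, *Arrdc2*, *Gm15725* and 9 genes that passed in every fit were named after their values were seen. The 32 lists, 12 families and the comparison itself were chosen with earlier results of these data known, and the major urinary protein family was added after the values were seen. Exact permutation tests used the 35 regroupings of 7 mice. The depth was 18081015 to 24993089 counts per B6-mtALR mouse, and the number of mice limits the precision. The scripts were tested on simulated data. Some single-gene results are not reported here, although these genes remain in the counts.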

Additional observations from a re-analysis of the deposited data

Results flagged for a closer look

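In 7 of the 225 gene and library values checked in the 4 B6-mtALR mice of 3 months, 1 mouse stood apart from the other 3. The measure is the gap between that mouse and its nearest neighbour as a share of the range of the 4, and chance alone gives such a gap in about 1 in 20 groups. The 7 found are fewer than that rate gives for 225 values. For *Usp2* the share was 0.993, since replicate 4 was at 1.00 CPM and the others all at 1.67 CPM. For *Ciart* it was 0.870, with replicate 4 at 0.125 CPM below 0.307, 0.316 and 0.335 CPM. For *Arntl* it was 0.855, with replicate 4 at 36.1 CPM above 31.4, 31.6 and 30.9 CPM. Replicate 4 was the mouse apart in these 3 genes of the clock lists, and on the side away from the mice of 5 months in each. No conclusion is drawn from this, since the flags were fewer than chance gives. For *Rora* and *Klf9*, also in the clock lists, another mouse stood apart. For *Lpl*, which encodes lipoprotein lipase, the share was 0.839, with replicate 5 at 22.2 CPM below 30.0 to 31.4 CPM. For *A930033H14Rik* it was 0.833, with replicate 6 at 0.496 CPM above 0.375 to 0.395 CPM. For *Rora*, which encodes a nuclear receptor of the clock, it was 0.832, with replicate 5 at 59.7 CPM below 84.8 to 89.9 CPM. For *Klf9*, a gene of the clock output list, it was 0.8292, with replicate 7 at 87.5 CPM above 44.9 to 52.2 CPM.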

How the results depend on the processing

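The number of genes that differed between 5 and 3 months, 106 by edgeR, was 302 by DESeq2 and 214 with age as a number over all 11 mice, and from 38 to 120 with 1 mouse left out. In the 4 libraries of B6-mtBPL, 14 became 92 by DESeq2, 42 without a filter, and 0 to 8 with 1 mouse left out. The difference between strains gave 0 to 1 genes with 1 mouse left out, namely *Gm8116* without the 5-month replicate 3 and *Grip2* without the 3-month replicate 5. The other settings gave 93 to 146 genes for B6-mtALR. The share of higher genes was 64.2%, and 81.2% without the 5-month replicate 1. None of the 106 genes changed sign in any fit, and 6 of 103 other named genes did. *Rora* (-0.07) was 0.0156 with a length correction and 0.00942 with length and GC. *G0s2* (0.11) was -0.0466 by limma-trend, and from -0.26 to 0.485 with 1 mouse left out. With 1 mouse left out, *Cdkn1a* (1.96) ranged from -0.19 without the 5-month replicate 2 to 2.59, *Leap2* (-0.13) from -0.296 to 0.10, *Usmg5* (-0.06) from -0.175 to 0.0879 and *Chchd1* (-0.12) from -0.199 to 0.0200, the last 3 being positive without the 5-month replicate 3. The causes were not tested. Of the medians of lists 12 moved by more than the spread between mice and 797 did not. No paired analysis was possible because the groups compared share no replicate number (1 to 3 against 4 to 7). Groups were small, and no other depth was tried. Ages were not matched between strains, time of day and feeding are not given in the labels, and estimated counts of near-identical or overlapping genes are uncertain.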

Other observations

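Several groups of genes outside the comparisons above had no gene past the threshold by edgeR but were uneven in sign. Over all 13375 genes tested 6923 had a positive log2 fold change. Of the 26 tested heat shock protein genes 24 had a positive log2 fold change between 5 and 3 months in B6-mtALR mice, with a median of 0.17, and 4 were higher and 0 lower at an unadjusted p under 0.05. The median centred log2 CPM of this list was 0.28, 0.27 and -0.14 in the mice of 5 months and -0.23 to 0.14 in those of 3 months, so the ages overlapped. Of the 30 genes of the urea cycle and amino acid breakdown 26 were positive, with a median of 0.19, but the medians by mouse were 0.34, -0.43 and 0.33 at 5 months and -0.29 to 0.06 at 3 months, with the 5-month replicate 2 the lowest of all. In both lists the median was smaller than the SD of the medians by mouse within an age, 0.19 and 0.30. Of the 27 genes of glycolysis and glycogen 21 were positive, with a median of 0.14 (SD 0.06) and 6 higher and 2 lower at an unadjusted p under 0.05. The medians by mouse were 0.042, 0.11 and 0.0038 at 5 months and -0.11 to 0.032 at 3 months, so the ages overlapped. Of the 44 interferon-stimulated genes 32 were negative, with a median of -0.11 (SD 0.22). The 38 proteasome subunits and 34 aminoacyl-tRNA synthetases tested had medians of 0.06 and -0.03, with 0 genes at an unadjusted p under 0.05 in either.

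*G0s2*, which encodes an inhibitor of the triglyceride lipase ATGL, gave 68.2, 84.3 and 23.8 CPM at 5 months and 46.0, 73.5, 43.2 and 55.1 CPM at 3 months, and *Leap2*, which encodes an antagonist of the ghrelin receptor, gave 58.4, 62.3 and 34.2 CPM and 67.0, 62.8, 52.0 and 43.7 CPM. In both genes, and in *Usmg5* and *Chchd1*, which encode small mitochondrial proteins, the 5-month replicate 3 was the lowest of the 7 mice. In that library shorter transcripts tended to be lower in general. The slope of centred log2 CPM on log10 transcript length was 0.332 there, the highest of all, and 0.324 in the 3-month replicate 6. In the other mice it was from -0.244 to 0.0901. Its part in these 4 genes was not tested. *Ptgds* (chromosome 2 from 25466709 to 25470046) lies beside *Paxx* and *Clic3*, and all 3 fell. Their log2 fold changes were -1.46, -1.41 and -2.51. *Clic3* lies within the span of *Paxx* on the opposite strand, so their reads may not be separable, and the *Ptgds* call was lost with any mouse left out.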
